A study of Mus musculus with 12 samples.

Results

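This account covers 10 genes of glutathione metabolism and antioxidant defence: Gclc, Gclm, Gss, Gsr, Gpx4, Gstp1, Txnrd1, Srxn1, Nqo1 and Hmox1. They were chosen by gene symbol, and all 10 were found among the 45706 genes of the blastocyst table and among the 13009 genes of the embryonic stem (ES) cell table. RNA sequencing was done on material with (WT) and without (KO) Dis3l, the gene for a nuclease of the cytoplasmic exosome, which digests RNA 3′ to 5′. There were 12 samples in the labels, 3 for each of 4 groups: Dis3L KO blastocysts, Dis3L WT blastocysts, Dis3L KO ES cells and Dis3L WT ES cells. Per the labels' protocols, blastocysts were flushed from superovulated females 96 h after hCG, libraries came from single embryos by Tn5 tagmentation, and ES cell lines were derived from blastocysts and grown with LIF on inactivated mouse embryonic fibroblasts. The labels do not say how the allele was made, how many ES cell lines were used or whether samples of a group came from separate litters or cultures. The p-values therefore measure only the spread between these samples. In blastocysts that is the spread between libraries of single embryos, which may share a litter, and in ES cells it may be technical.

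Glutathione is a small thiol made from glutamate, cysteine and glycine, and it is the main soluble reducing agent inside cells. Enzymes spend it to reduce peroxides and to detoxify electrophiles, and its oxidised form is returned to the reduced form with NADPH. Many of these genes are known targets of NRF2 (encoded by Nfe2l2), a transcription factor that KEAP1 marks for degradation until oxidants or electrophiles modify KEAP1, after which NRF2 binds antioxidant response elements together with small MAF proteins. Preimplantation embryos are known to rely on glutathione, much of it stored in the egg, for protection against oxidative damage.

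The result that stood farthest from the rest concerned Gstp1, a glutathione transferase of the pi class, and its neighbouring copy Gstp2, so their sequences are shown first. The first 90 coding bases of both genes, from the GRCm38 annotation, are given with capitals at the 6 positions where the copies differ:
Gstp1: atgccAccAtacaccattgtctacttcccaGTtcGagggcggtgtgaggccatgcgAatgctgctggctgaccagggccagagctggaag
Gstp2: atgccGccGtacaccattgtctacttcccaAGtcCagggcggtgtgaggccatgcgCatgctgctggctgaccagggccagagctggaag
Over the whole coding sequence of 630 bases the copies differed at 12 positions and were 98.1% identical. The longest run without a difference was 300 bases, and 412 of 581 windows of 50 bases were the same in both. Short reads from one copy can therefore be assigned to the other or dropped, depending on the counting, and values of either gene alone are uncertain.

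The promoters of Gstp1, Gstp2 and Srxn1 held the same 9 bases, shown in capitals in RefSeq sequence of GRCm38.p6. The windows are chr19:4037953-4038011 (minus strand) for Gstp1, chr19:4042277-4042335 (minus strand) for Gstp2 and chr2:152105454-152105512 (plus strand) for Srxn1:
Gstp1: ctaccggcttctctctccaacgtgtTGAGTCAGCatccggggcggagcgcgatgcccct
Gstp2: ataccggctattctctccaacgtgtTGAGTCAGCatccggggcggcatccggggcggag
Srxn1: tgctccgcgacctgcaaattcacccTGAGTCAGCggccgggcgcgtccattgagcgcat
The match began at position -74 from the RefSeq start in Gstp1, at -89 in Gstp2 and at -45 in Srxn1. The letters TGANTCAGC, searched on both strands and chosen after the sequences were seen, occurred in 390 of 32851 promoter windows (1.19%) reaching from 250 bases before a start to 50 after it. The shown matches of Gstp1, Gstp2 and Srxn1 contain the letters TGAGTCA, the textbook site of the AP-1 factors. Which factors bind these sites was not tested. The antioxidant response element core TGACNNNGC, also searched on both strands, occurred in 4071 windows (12.4%), among them those of Gclm, Srxn1, 1 Txnrd1 window and Nfe2l2. A promoter window was given for 7 of the 10 genes, and Gclc, Gsr and Hmox1 had none. A match is a description of the letters in this window.

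The deposited tables hold 1 comparison per material and no value per sample, and they do not say which genotype was divided by which. Signs are therefore given as deposited: genes with a positive log2 fold change were higher on one side, called the positive side, and genes with a negative one on the other. Whole reads per count column were solved from the authors' means and fold changes, which gave 6 count columns in blastocysts (3 a side) and 4 in ES cells (2 a side), although the labels list 6 ES cell samples. No column was tied to a sample or genotype, and the columns entered no test. The authors' means summed to 4608914 normalised reads over all genes in blastocysts and to 1513923 in ES cells. Dis3l itself had 26, 8 and 0 reads on the positive side against 10, 4 and 8 on the negative side in blastocysts, where the sides overlapped. In ES cells it had 14 and 8 positive-side reads against 39 and 39. The sides did not overlap there, as for 40.8% of the 9707 ES cell genes with a mean between 10 and 350. The log2 fold change of Dis3l in the authors' deposited table for ES cells was -0.88 ± 0.33 (SE). Its unadjusted p (Wald test) was 0.00778 and its adjusted p was 0.445. Trophectoderm markers were abundant in blastocysts, with a mean of 7678 for Krt18 and 5505 for Krt8 in the authors' deposited table, and 7 of 10 feeder fibroblast markers had a mean of 0 there. All 10 fibroblast markers had reads in ES cells, where they summed to 346 and 306 normalised reads in the positive columns against 364 and 1658 in the negative ones.

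In blastocysts none of the 10 genes passed the threshold of an adjusted p under 0.05 in the authors' deposited table (Wald test, Benjamini-Hochberg adjustment), while 0.0986% of the 15209 tested genes did. At an unadjusted p under 0.05, 3 of the 10 passed in the authors' deposited table, against 6.21% of tested genes. These were Gstp1 and Gsr on the negative side and Hmox1 on the positive side. The log2 fold changes of the authors' deposited table were positive for 5 genes and negative for 5, with a median of -0.31, beside a median of -0.04 over all tested genes. Among the 7 genes whose mean lay between 30 and 200, the count columns of the sides did not overlap for 3, and they did not overlap for 12.2% of the 5156 genes solved in that range.

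**Figure D1:**
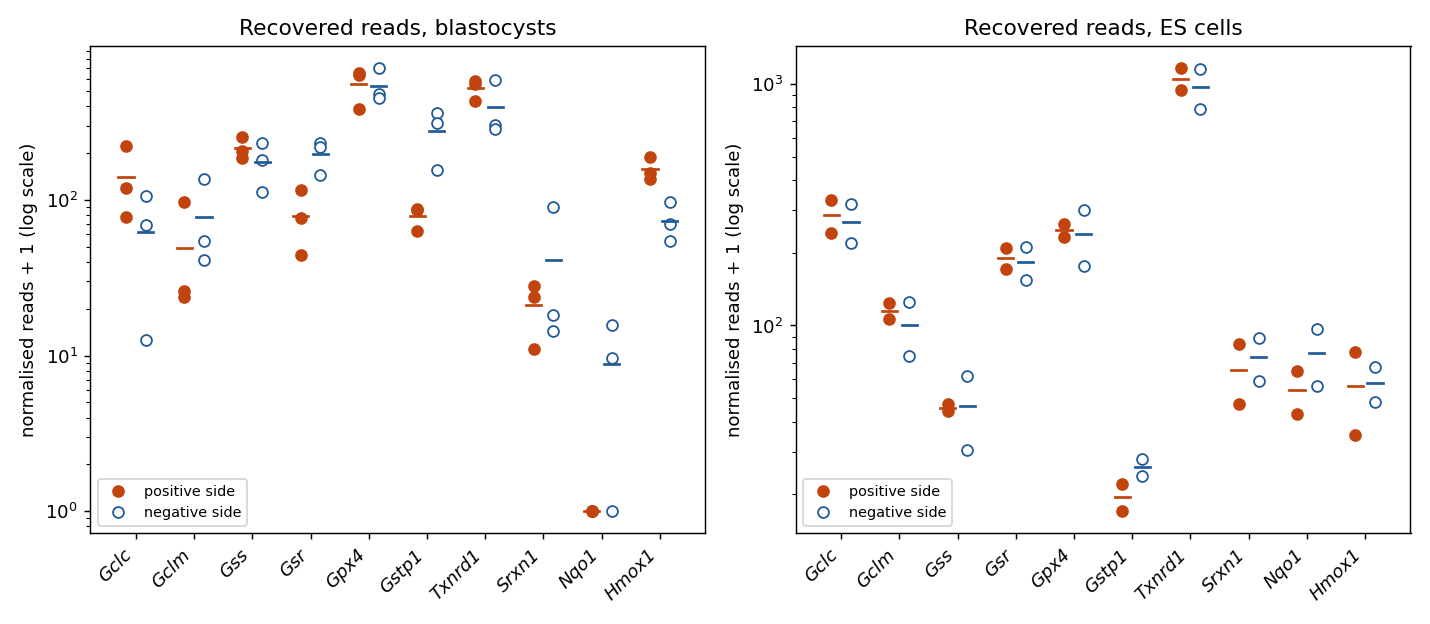
Normalised reads of the 10 genes in each recovered count column (points, log scale after adding 1, filled for the positive side and open for the negative side), with side means as lines, in blastocysts (left) and ES cells (right). In blastocysts the sides lay apart for Gsr, Gstp1 and Hmox1, and in ES cells for Gstp1.

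The synthesis genes gave no shared direction in blastocysts. Gclc encodes the catalytic subunit of glutamate-cysteine ligase, the rate-limiting enzyme of glutathione synthesis. Its normalised reads were 77.1, 117.7 and 221.7 on the positive side against 68.0, 104.8 and 11.5 on the negative side. The sides overlapped, with 1 positive column above all others and 1 negative column, of 8 reads, far below them. The log2 fold change in the authors' deposited table was 1.17 ± 0.76 (SE, 3 columns a side), with a p of 0.123 and an adjusted p of 0.811. From the recovered reads it was 1.78 without the second negative column and 0.66 without the third positive column.

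Gclm encodes the modifier subunit, which raises the affinity of the ligase for its substrates. Gclm had 22.8, 95.4 and 25.1 normalised reads on the positive side against 53.2, 40.1 and 135.2 on the negative side. The sides overlapped, since the second positive column lay above all but the highest negative one. Its log2 fold change in the authors' deposited table was -0.67 ± 0.84 (SE), with an unadjusted p of 0.425. Without the second positive column the log2 ratio of the recovered reads was -1.63, and without the third negative column it was 0.03. Gss encodes glutathione synthetase, which adds the glycine. Gss had 204.9, 251.7 and 184.0 normalised reads on the positive side against 111.3, 229.7 and 178.4 on the negative side, so that the sides overlapped and only 1 negative column lay well below the rest. The authors' deposited table gave a log2 fold change of 0.31 ± 0.46 (SE), with an unadjusted p of 0.505. The subunits of the ligase, Gclc and Gclm, thus had fold changes of opposite sign with intervals that both held 0, from -0.32 to 2.65 for Gclc and from -2.32 to 0.98 for Gclm in the authors' deposited table (95% intervals from the standard error).

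Gsr encodes glutathione reductase, which returns oxidised glutathione to the reduced form with NADPH. Gsr had 75.7, 115.7 and 43.4 normalised reads on the positive side against 230.1, 142.7 and 218.7 on the negative side. Every negative column lay above every positive one. The log2 fold change in the authors' deposited table was -1.33 ± 0.55 (SE, 3 columns a side), a ratio of 2.52 between the sides, with an unadjusted p of 0.0146. The adjusted p in the authors' deposited table was 0.641, so the difference did not pass over all genes. Leaving out each column in turn gave log2 ratios of the recovered reads from -1.71 to -1.04.

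Gstp1 differed most of the genes with appreciable reads. Its enzyme joins glutathione to electrophiles. Its raw reads were 122, 61 and 75 on the positive side against 581, 139 and 217 on the negative side. Normalised, these were 87.1, 61.9 and 85.7 against 359.3, 155.0 and 312.2. The positive columns lay close together, the negative ones were all higher, and the lowest negative column was the nearest to the positive side. The log2 fold change in the authors' deposited table was -1.82 ± 0.49 (SE, 3 columns a side), a ratio of 3.52, with a 95% interval from -2.78 to -0.85. Its p of 0.000235 placed it at rank 25 of the 15209 tested genes in the authors' deposited table, but the largest p that was called there was 4.74e-05. The adjusted p of Gstp1 in the authors' deposited table was 0.139, so it was not called.

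Gstp2, which is no member of the 10 but shares most of its coding sequence with Gstp1, was called. It had 91.4, 47.7 and 83.4 normalised reads on the positive side against 450.9, 161.7 and 369.7 on the negative side, the same order of columns within the negative side as in Gstp1. In the authors' deposited table its log2 fold change was -2.14 ± 0.52 (SE), with a p of 3.29e-05 and an adjusted p of 0.0385. Since reads of the copies may be split, they were also added, an alternative chosen after seeing the data. The sum was 178.4, 109.6 and 169.1 on the positive side against 810.1, 316.6 and 681.9 on the negative side, a log2 ratio of -1.98. The third pi-class gene, Gstp3, was searched by symbol and had no entry in either material.

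The marker lists of the embryo's cell types held 0 called genes in the authors' deposited table, where 0.0986% of all tested genes were called. Of the 8 markers of pluripotent cells, 6 had negative and 2 positive log2 fold changes there, with a median of -0.33. An unadjusted p under 0.05 was found for 3 of them, against 6.21% of all tested genes. Those 3, Pou5f1, Nanog and Tdgf1, had the sign of Gstp1 and Gsr, with log2 fold changes of -1.21, -1.93 and -1.75 in the authors' deposited table and adjusted p of 0.609, 0.546 and 0.205. The other markers of that list lay nearer 0, with -0.53 for Klf4, -0.13 for Dppa5a, -0.05 for Zfp42, 0.00 for Esrrb and 0.03 for Sox2 in the authors' deposited table. The summed normalised reads of the 7 pluripotency markers with recovered reads were 1752, 888 and 892 on the positive side against 1964, 1721 and 2394 on the negative side, and the sides overlapped. Of the 8 trophectoderm markers, 4 were positive and 4 negative in the authors' deposited table, with a median of 0.07. The abundant Krt8 and Krt18 had -0.87 and -0.63, with unadjusted p of 0.0146 and 0.0289, and Gata3 had 0.52, with an unadjusted p of 0.0419, in the authors' deposited table. Of the 6 primitive endoderm markers, 2 were positive and 4 negative in the authors' deposited table, with a median of -0.12, and Sox7 had 3.27 with an unadjusted p of 0.00226. The part of these cell types in the values of Gstp1 and Gsr was not tested, and in bulk samples fewer cells of a type and less RNA per cell cannot be told apart.

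Gpx4, in contrast, was nearly level. It encodes the selenium-containing peroxidase that uses glutathione to reduce lipid peroxides in membranes and so blocks ferroptosis. Gpx4 had 385.5, 649.6 and 637.6 normalised reads on the positive side against 475.0, 702.4 and 448.8 on the negative side, where the sides overlapped throughout. The log2 fold change in the authors' deposited table was 0.04 ± 0.35 (SE), with a 95% interval from -0.65 to 0.73.

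The remaining genes act through thioredoxin, quinones and haem. Hmox1 encodes haem oxygenase 1, which splits haem into biliverdin, carbon monoxide and iron. Hmox1 had 135.6, 188.8 and 148.6 normalised reads on the positive side against 53.2, 95.9 and 69.1 on the negative side. Every positive column lay above every negative one, the reverse of Gsr and Gstp1. Its log2 fold change in the authors' deposited table was 1.12 ± 0.53 (SE, 3 columns a side), a ratio of 2.17, with an unadjusted p of 0.036. With an adjusted p of 0.769 in the authors' deposited table, Hmox1 was not called. Leaving out each column in turn gave log2 ratios from 0.93 to 1.35.

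Txnrd1 encodes the cytosolic thioredoxin reductase, a selenoprotein that keeps thioredoxin reduced. Txnrd1 had 551.1, 580.5 and 429.7 normalised reads on the positive side against 304.3, 593.1 and 284.8 on the negative side. The sides overlapped through 1 negative column, which was the highest of all. The authors' deposited table gave a log2 fold change of 0.40 ± 0.38 (SE), with an unadjusted p of 0.296, and the log2 ratio of the recovered reads was 0.82 without that second negative column. Srxn1 encodes sulfiredoxin, which repairs over-oxidised peroxiredoxins. Srxn1 had 27.1, 10.1 and 22.9 normalised reads on the positive side against 17.3, 13.4 and 89.2 on the negative side. A log2 fold change of -0.98 ± 1.08 (SE) in the authors' deposited table rested on the third negative column, since the log2 ratio of the recovered reads was 0.36 without it.

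Nqo1 encodes a quinone reductase and is a classical NRF2 target. In blastocysts it had 0, 0 and 0 reads on the positive side against 24, 0 and 6 on the negative side, so it was barely detected in these embryos. The fitted log2 fold change of -5.50 ± 3.41 (SE) in the authors' deposited table, with an unadjusted p of 0.106, depends on how columns without reads are treated and is no bound.

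**Figure D2:**
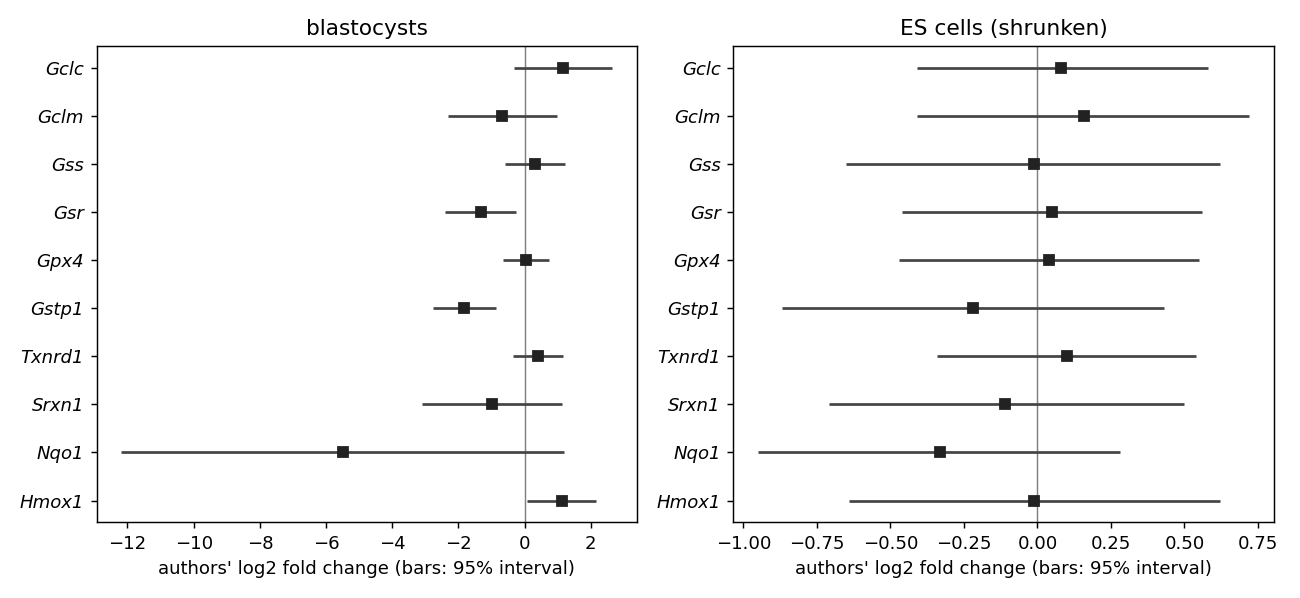
Log2 fold changes of the authors' deposited tables (squares) with 95% intervals from the authors' standard errors (lines) for the 10 genes, in blastocysts (left) and ES cells (right, shrunken, on a narrower axis). In blastocysts the intervals of Gsr, Gstp1 and Hmox1 leave out 0, and in ES cells all 10 intervals hold 0.

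In ES cells the 10 genes lay close to 0 in the authors' deposited table. None passed an adjusted p under 0.05, against 0.261% of 10739 tested genes in the authors' deposited table, and none passed an unadjusted p under 0.05, against 5.62%. The smallest unadjusted p of the 10 in the authors' deposited table was 0.284, for Nqo1, and the adjusted p was 0.9996 for each of them. Of the fold changes in that ES cell comparison of the authors' deposited table, 5 were positive and 5 negative, with a median of 0.02 beside -0.00 over all tested genes. The fold changes of this table are shrunken towards 0, as a fit with a prior on the log2 scale (SD 0.664) gave them back from the recovered reads, so the ratios of the reads are larger. Of the 9 genes with a mean between 10 and 350, the sides did not overlap for 1, Gstp1, and they did not overlap for 40.8% of the 9707 genes solved in that range with 2 columns a side.

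Among the synthesis genes in ES cells, Gclc had 331.3 and 241.0 normalised reads on the positive side against 316.6 and 219.3 on the negative side. Gclm had 122.9 and 105.3 against 124.6 and 73.4, and Gss had 43.1 and 46.1 against 29.5 and 60.9. In each of these genes the columns of the negative side enclosed or reached into the positive ones, and the gap within the negative side was larger than that between the sides. Their log2 fold changes in the authors' deposited table were 0.08 ± 0.25, 0.16 ± 0.29 and -0.01 ± 0.32 (SE). Gsr had 208.4 and 169.9 normalised reads on the positive side against 211.1 and 152.7 on the negative side. Its log2 fold change in the authors' deposited table was 0.05 ± 0.26 (SE), with a 95% interval from -0.46 to 0.56. The interval of Gsr in blastocysts, from -2.40 to -0.26 in the authors' deposited table, belongs to unshrunken values from another library method, and the difference between the materials was not tested.

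Of the enzymes that use glutathione, Gpx4 had 261.1 and 231.8 normalised reads on the positive side against 299.5 and 175.9 on the negative side, which enclosed them. Its log2 fold change in the authors' deposited table was 0.04 ± 0.26 (SE). Gstp1 was low in ES cells, with 20 and 16 positive-side reads against 24 and 28. Normalised, these were 16.0 and 21.1 against 22.8 and 27.1, so both negative columns were higher by a small margin. The log2 fold change in the authors' deposited table was -0.22 ± 0.33 (SE), with a p of 0.513, and -0.44 with the shrinkage undone. Gstp2 had 0 and 1 reads in the positive ES cell columns against 11 and 11 in the negative ones. In the authors' deposited table Gstp2 had a mean of 5.60 and an unadjusted p of 0.0299, and no adjusted p was given for it. The reads of Gstp1 and Gstp2 added were 16.0 and 22.4 against 33.3 and 37.7 in ES cells, a log2 ratio of -0.85.

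Txnrd1 was the member with the most reads in ES cells, with 1164.0 and 940.2 normalised reads on the positive side against 1155.2 and 788.5 on the negative side. Srxn1 had 83.0 and 46.1 against 87.5 and 58.0, and Hmox1 had 76.6 and 34.2 against 66.6 and 47.3. The sides overlapped in these 3 genes. Their log2 fold changes in the authors' deposited table were 0.10 ± 0.23, -0.11 ± 0.31 and -0.01 ± 0.32 (SE). Nqo1, barely detected in blastocysts, had clear reads in ES cells, with 63.9 and 42.1 normalised reads on the positive side against 96.0 and 55.1 on the negative side. Its columns overlapped, and its log2 fold change in the authors' deposited table was -0.33 ± 0.31 (SE), or -0.50 with the shrinkage undone.

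The first negative ES cell column held the highest value of 5 of the 10 genes, and the second negative column the lowest value of 5. That second column was also the one with 1658 normalised reads of fibroblast markers, and the part of feeder cells in its values was not tested. Without it the log2 ratios of the recovered reads were -0.28 for Gpx4 and -0.13 for Txnrd1, where they were 0.05 and 0.11 with all columns. Without the first negative column they were 0.48 for Gpx4, 0.63 for Gclm and 0.42 for Txnrd1.

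**Figure D3:**
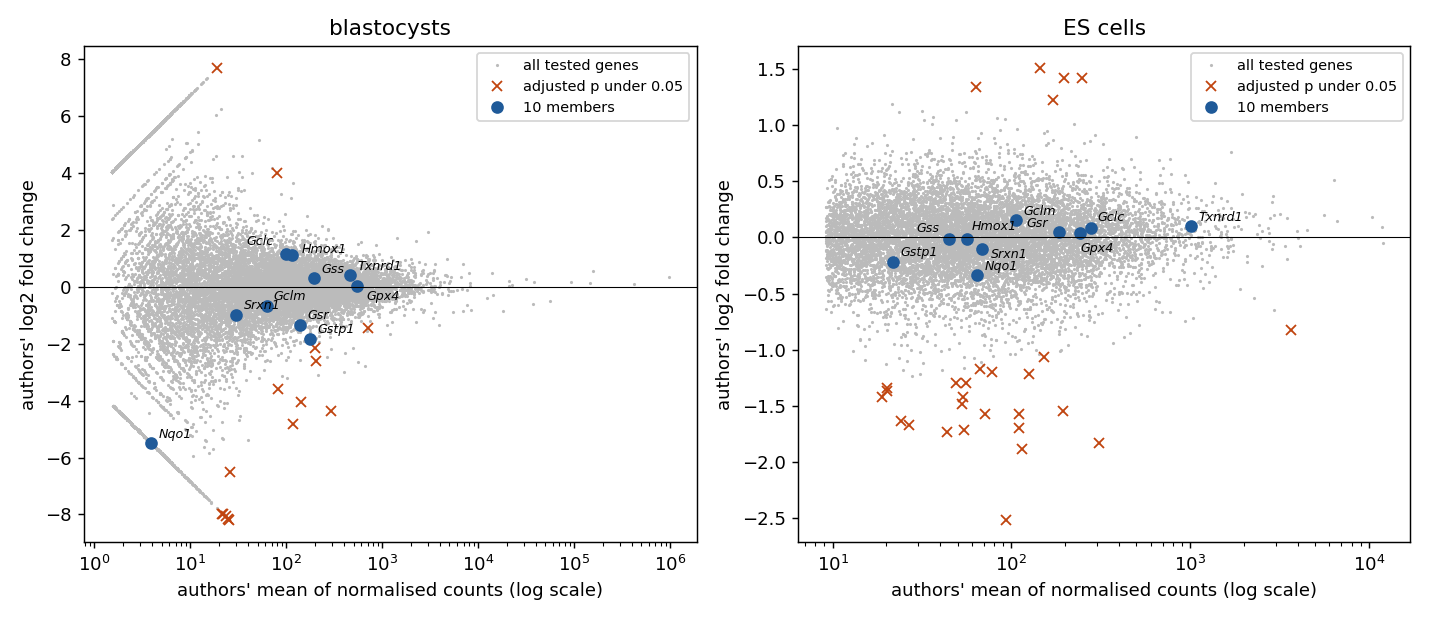
Log2 fold change against the mean of normalised counts (log scale) in the authors' deposited tables for all tested genes (grey points), called genes (crosses) and the 10 members (labelled points). In blastocysts Gstp1, at -1.82, lies near the called genes, and in ES cells the members lie between -0.33 and 0.16.

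The order of the levels differed between the materials. Per kb of merged exon length, the mean of the authors' deposited table in blastocysts was highest for Gpx4 (319 normalised reads per kb), followed by Gstp1 (114), Hmox1 (65.8), Txnrd1 (64.5), Gsr (50.0), Gss (32.7), Gclc (26.6), Srxn1 (10.6), Gclm (9.85) and Nqo1 (2.52). In ES cells the mean per kb from the authors' deposited table was highest for Txnrd1 (143) and Gpx4 (140), whose columns overlap on this scale, followed by Gclc (73.6), Gsr (67.4), Nqo1 (41.4), Hmox1 (32.1), Srxn1 (24.3), Gclm (16.9), Gstp1 (14.0) and Gss (7.59). The place of Gstp1 in blastocysts came from the negative columns, where its recovered reads per kb averaged 178 and ranked 2 of 10. In the positive columns they averaged 50.5 and ranked 4, below Gpx4, Hmox1 and Txnrd1. In ES cells Gstp1 was near the bottom on both sides, while Nqo1 was last in blastocysts and in the middle in ES cells. These are orders within each table, since library methods and read totals differed, and no difference between materials was tested. All fibroblast markers had reads in the ES cell columns, and their part in these levels was not tested.

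The wider pathway was described by 8 lists of 94 genes. In blastocysts, 78 of these were tested, 1 was called with a positive and 1 with a negative sign in the authors' deposited table, where 0.0986% of all tested genes were called. At an unadjusted p under 0.05, 2 were positive and 5 negative in the authors' deposited table, against 6.21% of all tested genes, and the median was -0.24 beside -0.04 over all of them. In ES cells, 68 were tested and 0 were called in the authors' deposited table, with a median of 0.02 beside -0.00 over all tested genes. Of the 68 tested, 4 had an unadjusted p under 0.05 in the authors' deposited table, a share near the 5.62% of all tested genes.

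The positive call in blastocysts was Chac1, which encodes an enzyme that breaks glutathione down inside cells and is a known target of the ATF4 stress pathway. Chac1 had 115.6, 249.7 and 89.1 normalised reads on the positive side against 2.5, 15.6 and 11.5 on the negative side, where every negative column was far below every positive one. In the authors' deposited table its log2 fold change was 3.99 ± 0.80 (SE), with an adjusted p of 0.00213. In ES cells Chac1 had 126.9 and 89.5 normalised reads against 128.4 and 87.9, and its sides were level. In the same list, Slc3a2, the heavy chain of the cystine importer, had a log2 fold change of 0.95 ± 0.41 (SE) in the authors' deposited table for blastocysts, with an unadjusted p of 0.0199. Its partner Slc7a11 had few reads, 5.7, 14.2 and 75.4 on the positive side against 3.7, 31.2 and 0.0 on the negative side after normalisation.

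The negative call was Gstp2, 1 of 15 tested glutathione transferases, of which 7 had positive and 8 negative fold changes in the authors' deposited table for blastocysts. Over all tested genes, 48.3% had positive fold changes in that blastocyst comparison. Of the 13 tested peroxidases and dismutases, 10 were negative in the authors' deposited table, 0 were called and 1 had an unadjusted p under 0.05. That one was Sod1, the cytosolic superoxide dismutase, with 139.9, 81.2 and 68.6 normalised reads on the positive side against 218.9, 187.3 and 261.8 on the negative side. Its sides did not overlap, and its log2 fold change was -1.20 ± 0.49 (SE) in the authors' deposited table, with an adjusted p of 0.641. Glrx, a glutaredoxin that uses glutathione to reduce mixed disulfides, and Blvrb, a biliverdin reductase, had log2 fold changes of -1.23 ± 0.59 and -2.14 ± 1.04 (SE) in the authors' deposited table, both with an adjusted p of 0.769.

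The regulators of the pathway did not pass in either material. In the authors' deposited tables, Nfe2l2 had a log2 fold change of -0.38 ± 0.53 (SE) in blastocysts and of 0.01 ± 0.27 in ES cells. For Keap1 the authors' deposited tables gave -0.67 ± 0.57 (SE) in blastocysts and 0.06 ± 0.33 in ES cells. Of all 11 listed regulators, 0 were called and 0 had an unadjusted p under 0.05 in the authors' deposited tables of either material.

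The 4 tested ES cell genes of the wider lists with an unadjusted p under 0.05 in the authors' deposited table, a share near the 5.62% of all tested genes, are given as values only. Gstp2, without an adjusted p there, is not counted among the tested genes. Gsto1, an omega-class glutathione transferase, and Fth1, the ferritin heavy chain that stores iron, had log2 fold changes of 0.63 ± 0.29 and 0.56 ± 0.26 (SE) in the authors' deposited table. Prdx4, a peroxiredoxin of the endoplasmic reticulum, and Me1, which supplies NADPH, had -0.81 ± 0.30 and -0.76 ± 0.30 (SE) in the authors' deposited table. Prdx4 lies on the X chromosome, where 80.0% of 370 tested genes had negative fold changes in the authors' deposited table, with a median of -0.31, and the part of that shift in its value was not tested. Over all tested genes in ES cells, 50% had positive fold changes. All 6 NADPH supply genes were negative in the ES cell comparison of the authors' deposited table, with a median of -0.21, 0 were called, and Me1 alone had an unadjusted p under 0.05. One of them, G6pdx, is X-linked too, and its log2 fold change of -0.34 in the authors' deposited table lay near the median of the X chromosome.

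**Figure D4:**
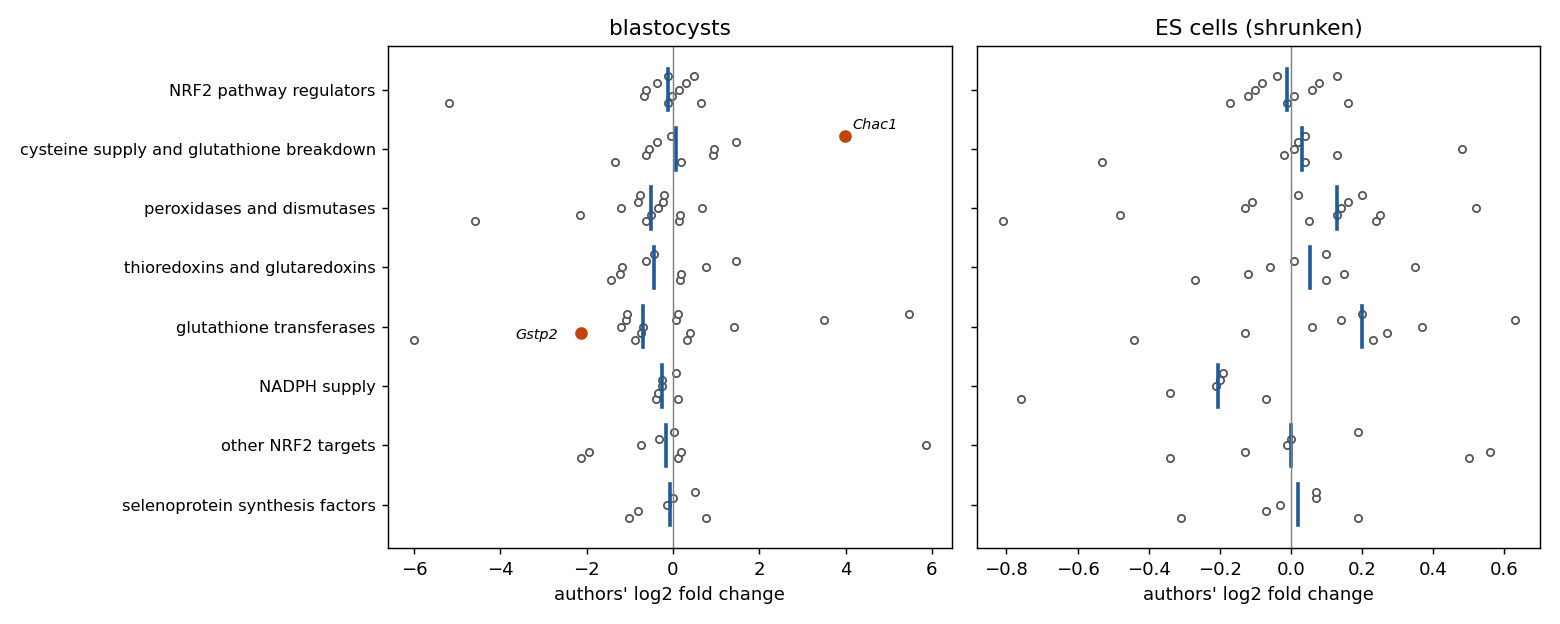
Log2 fold changes of the authors' deposited tables for tested genes of the 8 wider lists (1 row a list, points spread vertically for legibility, blue lines are list medians), in blastocysts (left) and ES cells (right, shrunken, narrower axis). The called genes (filled points) are Chac1, at 3.99, and Gstp2, at -2.14, both in blastocysts.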

How the data were processed

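RNA was sequenced from 12 samples, and 1 table of comparison results per material was used. The submitters' processing notes name STAR 2.4.0b, bedtools, SAMtools, featureCounts, Subread 2.0.1, DESeq2 1.34.0 and GRCm38, without role or order. Per the file headers, the tables hold the authors' mean signal of normalised counts, the authors' log2 fold change with its standard error, a Wald score and the authors' p-value with its adjusted p-value. The p-values equalled two-sided normal p-values of the score. The adjusted values were given back by Benjamini-Hochberg over tested genes. No per-sample column exists in the files used here (0 left aside), so the planned edgeR test could not be run and the authors' statistics were used.

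Each mean is a sum of whole reads divided by column size factors. Reads were found as the whole-number solution of the mean whose refitted fold change equalled the deposited one within 5e-06. Without that match, a mean's only solution was also kept in ES cells. The same held at low means in blastocysts for an only solution with all reads on one side, as for Nqo1. Reads were found for 96.2% of 5357 blastocyst genes with a mean of 30 to 200 and 100.0% of 9707 ES cell genes with a mean of 10 to 350. Size factors ran from 0.695 to 1.62 in blastocysts and from 0.759 to 1.25 in ES cells. The recovery was also tried on simulated data, with means drawn from 10 to 350 in ES cells but only from the lower part of 30 to 200 in blastocysts. Gpx4, Txnrd1 and Nqo1 in blastocysts lay outside the full ranges, with means of 550, 457 and 3.91. So did Txnrd1 in ES cells, with a mean of 1012. The reads of these genes are covered neither by the solved shares nor by the simulation. Gss, Gsr and Gstp1 in blastocysts, with means of 193, 138 and 177, lay above the simulated means. Their reads are covered by the solved share but not by the simulation. Most recovered blastocyst reads were even numbers, so counting error is larger than the reads alone imply, and PCR copies are not separate molecules. Ratios of recovered reads used a pseudocount of 1. Exon lengths and coding sequences came from GENCODE M21 on GRCm38. Python 3.11.15, numpy 2.4.6, pandas 2.3.3, scipy 1.17.1 and numba 0.67.0 were used.

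The members and lists were chosen with earlier results of these data known. All 10 members, Nfe2l2, Keap1 and Gstp2 were named, and of the wider lists each called gene and up to 5 genes per direction with the smallest unadjusted p under 0.05 and a mean of at least 10. Chosen after their values were seen were Slc7a11, the marker genes and Chac1 in ES cells.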

Additional observations from a re-analysis of the deposited data

How the results depend on the processing

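The count of called members was 0 in both materials at adjusted p thresholds of 0.05 and 0.10. It was also 0 with adjustment over every gene with a p-value, with genes of a mean of at least 50 alone, and with rescaled Wald statistics. A threshold of 0.01 or an added minimum log2 change of 1 could only give 0, since no member passed 0.05. With a minimum mean of 50 the smallest adjusted p of a member was 0.14, and with rescaled statistics it was 0.461. The median of the members in blastocysts was -0.28 after centring and 0.04 without Gstp1, where it was -0.31 as deposited. With 5 positive and 5 negative members, leaving out any negative one gives the same 0.04. In ES cells it was 0.02 after centring and 0.04 without Gstp1. Leaving out each count column gave log2 ratios for Gstp1 from -2.09 to -1.57 in blastocysts and from -0.61 to -0.23 in ES cells. The sign also held over all columns left out for Gclc, Gss, Gsr, Txnrd1, Nqo1 and Hmox1 in blastocysts and for Nqo1 in ES cells. It changed for Gclm, Gpx4 and Srxn1 in blastocysts and for the other 8 genes in ES cells. For Nqo1 in blastocysts the sign could not change, since its positive columns held no reads and its negative reads did not lie in a single column. No paired analysis was possible because the tables hold no value per sample and the recovered columns carry no replicate numbers. Depth limits what can be seen for Nqo1 and Srxn1 in blastocysts and Gstp1 in ES cells, whose reads were few. The standard errors of the members had a median of 0.54 on the log2 scale in blastocysts, which is the error on a difference of a typical member.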
